A study of Mus musculus with 8 samples.

Results

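The 35 genes described here encode nuclear subunits of respiratory complex I and were followed in cardiomyocytes of young mice with and without Cre-mediated deletion of floxed Carm1, which encodes an arginine methyltransferase that acts on histones and other proteins. They were found in the count table by matching its mouse Ensembl gene IDs to the listed symbols, which gave 35 of the 54752 genes in the table. All cells came from hearts of Carm1fl/fl mice and were isolated on a Langendorff perfusion system. The groups are KO at 3w (AAV-CRE), control at 3w (AAV-GFP), KO at 1w (AAV-CRE) and control at 1w (AAV-GFP), with 2 libraries each. AAV9, an adeno-associated virus, carried Cre, which deletes a floxed gene part, or GFP. The labels give postnatal days 3 and 4 for the injections of the 3w groups and days 1 and 2 for those of the 1w groups. In each group the first library has the earlier day and the second the later. The hearts were mosaic, so infected and uninfected cardiomyocytes lay together, and no group had Cre without floxed alleles. It is not stated outright that each library is an animal of its own, so the p-values measure the spread between libraries, which may be technical.

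Complex I is the entry point of the respiratory chain: it takes electrons from NADH, passes them along iron-sulfur clusters to ubiquinone and pumps protons across the inner mitochondrial membrane. It is L-shaped, with a matrix arm that holds the redox centres and a membrane arm that holds the proton pumps. The pump subunits are encoded in mitochondrial DNA, and the nucleus encodes the redox core and the accessory subunits around it. Heart muscle turns to fatty acid oxidation after birth and builds up its respiratory chain as it does so. By role, the list holds 6 core subunits of the matrix arm, 9 accessory subunits of that arm, 9 accessory subunits of the proximal membrane arm, 10 of the distal membrane arm, and the acyl carrier protein Ndufab1. The genes lie on 15 chromosomes, with 5 of them on chromosome 17, and Ndufa1 and Ndufb11 on X.

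Promoters are shown because most of the genes moved in the same direction in KO, and their letters can be set side by side. RefSeq (GRCm38.p6) gave a window of 300 bases, 250 before the start and 50 after it, for 32 of the 35 genes. The windows were searched on both strands for exact matches to GCGCANGC (NRF1), AAGATGGC (YY1), CCGGAAG (GABPA and other ETS factors), TGACGTCA (CREB) and AAGGTCA (oestrogen-related receptors). The NRF1 letters stood in windows of 9 of the 32 genes (28.1%), against 9.95% of all 32851 windows. The YY1 letters stood in windows of 7 genes (21.9%), against 2.75% of all windows. The GABPA letters were found for 4 genes (12.5%), against 8.86%. The CREB letters were found for 3 genes (9.38%), against 1.79%. The receptor letters were also found for 3 genes (9.38%), against 4.72%. These shares of the subunits are per gene, whereas those of the whole set are per window. Per window, the 34 windows of the 32 genes held the NRF1 letters in 29.4% and the YY1 letters in 20.6%. The GABPA letters stood in 11.8% of them, and the CREB and receptor letters in 8.82% each. No test was made of these shares, and a match is a description of letters, not of binding. The following are the 250 bases before the start for the membrane-arm subunits Ndufc2 (chr7:97399753-97400002, plus strand) and Ndufb2 (chr6:39592315-39592564, plus strand) and the core subunit Ndufv2 (chr17:66101560-66101809, minus strand). Each had the largest mean KO change in its role among genes whose 250 bases hold no annotated exon, which left 8 genes to choose from, and capitals mark matches. Ndufa9, which the same rule picked among the matrix-arm accessory subunits, is not printed.
Ndufc2: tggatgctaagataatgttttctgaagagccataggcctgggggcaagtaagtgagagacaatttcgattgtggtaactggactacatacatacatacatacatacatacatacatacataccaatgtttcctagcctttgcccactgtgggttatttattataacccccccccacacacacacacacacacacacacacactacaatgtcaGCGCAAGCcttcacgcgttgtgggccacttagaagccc
Ndufb2: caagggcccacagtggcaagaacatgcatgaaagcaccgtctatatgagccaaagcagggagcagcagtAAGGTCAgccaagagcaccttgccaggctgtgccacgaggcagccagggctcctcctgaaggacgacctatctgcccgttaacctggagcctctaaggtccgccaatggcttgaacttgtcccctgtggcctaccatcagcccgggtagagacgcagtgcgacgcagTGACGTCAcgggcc
Ndufv2: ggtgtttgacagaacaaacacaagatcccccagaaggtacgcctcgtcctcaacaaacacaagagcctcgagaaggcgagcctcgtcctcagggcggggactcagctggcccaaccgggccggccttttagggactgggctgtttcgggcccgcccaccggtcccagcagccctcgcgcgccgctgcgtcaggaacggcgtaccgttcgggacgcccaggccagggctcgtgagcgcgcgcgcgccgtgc
The match in Ndufc2 is to the NRF1 letters and begins 38 bases before the start. In Ndufb2 the receptor letters begin 181 bases before the start and the CREB letters 14 bases before it. Ndufv2 holds none of these letters in its window.

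RNA was counted per gene, with 20818285 to 53671626 counts per library, of which 40.7 to 47.84% came from mitochondrially encoded genes. Levels are CPM, the counts of a gene relative to the library's total after scaling by the trimmed mean of M-values. Carm1 itself had 17.3 and 17.9 CPM in KO at 3w against 39.9 and 39.2 CPM in control at 3w. At 1w its levels were 22.2 and 22.4 CPM in KO against 40.5 and 39.1 CPM in control. At 3w transcripts of 4 Y-linked genes summed to 0.106 and 0.0697 CPM in KO against 161 and 170.1 CPM in control. At 1w they summed to 113 and 113 CPM in KO against 0.042 and 0 CPM in control. KO and control of 1 age therefore also differ in these transcripts, in opposite directions at the 2 ages. Changes were tested with edgeR's quasi-likelihood test on 1 fit of the 4 groups, and a gene was called at a Benjamini-Hochberg adjusted p under 0.05 over the 14665 genes tested. Of the 35 subunit genes, 34 passed the filter on low counts, with 949 (Ndufc1) to 32552 (Ndufv1) counts per library. Ndufa13 is listed at 0 counts in all 8 libraries. The contractile genes Actc1 and Tnnc1 and the cytochrome oxidase gene Cox4i1 are listed at 0 as well, so no level is given for Ndufa13.

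At 3w every one of the 34 subunit genes tested was lower in KO than in control, by a median of -0.45 on the log2 scale, where the median of all genes tested was 0.01. The change ranged from -0.83 for Ndufa12 to -0.24 for Ndufb5, and the SD between the genes, 0.134, stood against a median SE of 0.038. All 34 passed the test, where 24.8% of all genes tested were called lower, 24.4% higher and 49.2% in either direction. In all 34 both KO libraries lay below both control libraries, as they did in 36% of all genes, while 36.6% had them above. Summed over the list, KO libraries at 3w held 6380.7 and 6281.1 CPM and control libraries at 3w held 8631 and 8653.2 CPM, a ratio of 0.733. When libraries were scaled to the summed counts of the contractile genes instead, 21 of the 34 were called lower and none higher, where 6.5% of all genes were called lower and 54.7% higher, and Ndufs1, Ndufa8, Ndufb5, Ndufa3 and Ndufa11 turned to values between 0.00 and 0.08 that did not pass. Under that scaling the median of all genes moved to 0.33 and that of the subunits to -0.12. The subunits thus stood at -0.45 relative to all genes, as in the main scaling, but a new scaling shifts all genes almost equally. Such a distance, here and in the comparisons below, therefore stays nearly the same by construction and does not check the scaling. Beside these changes, fibroblast markers summed to 819 and 828 CPM in KO against 388 and 393 CPM in control at 3w, and contractile genes to 74244 and 73265 CPM in KO against 90125 and 94625 CPM in control. The part of either in the subunit changes was not tested, and in these bulk samples fewer cells of a type and less RNA per cell cannot be told apart.

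**Figure D1:**
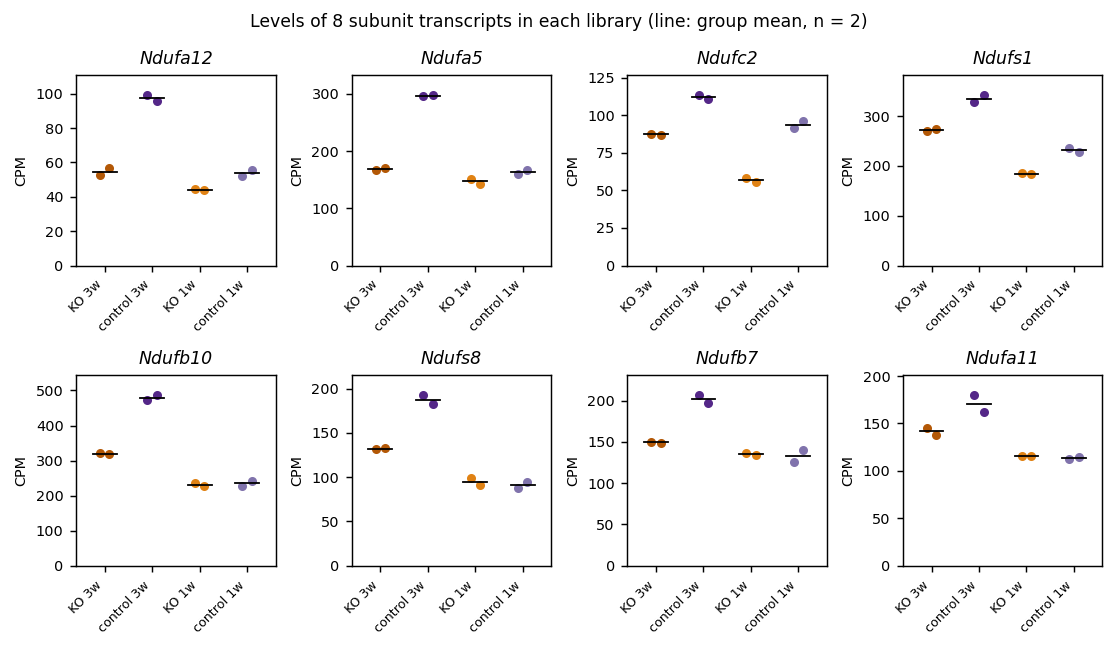
CPM of 8 subunit genes in each of the 8 libraries, by group, with points for libraries and a line at the mean of 2. In KO at 3w all 8 genes lay below control at 3w, whereas at 1w the groups of Ndufb10, Ndufs8 and Ndufb7 overlapped.

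The core subunits of the matrix arm, which carry the flavin and the iron-sulfur clusters, were lower in 6 of 6 in KO at 3w, with a median of -0.47. Ndufv1, which binds the flavin and oxidises NADH, had 594 and 585 CPM in KO at 3w against 776 and 779 CPM in control at 3w. Its change of -0.40 ± 0.0296 (SE) passed with an adjusted p of 2.47e-18 in edgeR's test. Ndufs1 (chr1:63143596-63176833 in GRCm38, minus strand), the large subunit whose clusters carry electrons away from the flavin, had 271 and 275 CPM in KO at 3w against 328 and 342 CPM in control at 3w. The groups did not overlap, but the change of -0.30 ± 0.0324 was among the 3 smallest on the list. Ndufs7, which holds the last cluster before ubiquinone, had 182 and 175 CPM in KO at 3w against 253 and 236 CPM in control at 3w. Its change of -0.46 ± 0.0854 had an adjusted p of 0.00801 in edgeR's test, and without the first control library at 3w it was -0.41 with an adjusted p of 0.0635. Ndufs8, the neighbouring iron-sulfur subunit, had 132 and 133 CPM in KO at 3w against 192 and 182 CPM in control at 3w. The groups of Ndufs7 and Ndufs8 did not overlap either. Ndufv2, which carries a cluster beside the flavin, had 348 and 343 CPM in KO at 3w against 492 and 469.9 CPM in control at 3w, a change of -0.48 ± 0.0321. Ndufs3, a subunit near the ubiquinone site, had 161 and 147 CPM in KO at 3w against 218 and 221 CPM in control at 3w, a change of -0.51 ± 0.0371.

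The accessory subunits of the matrix arm fell in 9 of 9 in KO at 3w, with a median of -0.54, the lowest median of the roles with more than 1 gene. The 2 genes with the largest falls on the whole list are here. Ndufa12 (chr10:94198720-94221443 in GRCm38, plus strand), a small subunit that joins the arm late in assembly, had 52.6 and 56.8 CPM in KO at 3w against 99.2 and 95.5 CPM in control at 3w. Ndufa5 (chr6:24518666-24528013, minus strand), a subunit of the ubiquinone-binding part, had 166 and 170.3 CPM in KO at 3w against 296 and 298 CPM in control at 3w. In both genes the KO libraries stood far below the control libraries, at 0.561 and 0.567 of the control level. The changes were -0.83 ± 0.0438 for Ndufa12 (adjusted p = 3.83e-25) and -0.82 ± 0.0343 for Ndufa5 (adjusted p = 5.04e-30) in edgeR's test. Ndufs4, whose loss in mice causes a Leigh-like disease, had 108 and 109.8 CPM in KO at 3w against 161 and 158 CPM in control at 3w. Ndufa9, which sits at the junction of the arms, had 298 and 301 CPM in KO at 3w against 433 and 445 CPM in control at 3w. Both changed by -0.55, and neither pair of groups overlapped. Ndufs6, a zinc-binding subunit, had 217 and 212 CPM in KO at 3w against 296 and 327 CPM in control at 3w, a change of -0.54 ± 0.0381. Ndufa6, Ndufa2, Ndufv3 and Ndufa7 changed by -0.43 to -0.35.

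In the proximal membrane arm 8 of 8 tested genes were lower in KO at 3w, with a median of -0.37. Ndufs5, a subunit on the intermembrane side held by disulfide bonds, led them with 73.8 and 75.4 CPM in KO at 3w against 104 and 120.3 CPM in control at 3w, a change of -0.58 ± 0.0507. Ndufc2 (chr7:97400003-97407802 in GRCm38, plus strand), a small membrane subunit, had 87.7 and 87.1 CPM in KO at 3w against 113 and 111 CPM in control at 3w. Ndufa11 was nearest to control, with 146 and 138 CPM in KO at 3w against 179.7 and 162 CPM in control at 3w. Its change was -0.27 ± 0.0384, and reads of its processed copy Ndufa11b, 618 counts in all against 36621 for Ndufa11, did not alter the call when they were added. Ndufa1, an X-linked subunit needed for assembly, had 219 and 213 CPM in KO at 3w against 279 and 309 CPM in control at 3w. Its SE of 0.0881 was the largest on the list and its adjusted p 0.0117 in edgeR's test. Ndufc1, Ndufa10, Ndufa8 and Ndufa3 changed by -0.47 to -0.32.

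In the distal membrane arm 10 of 10 genes were lower in KO at 3w, with a median of -0.45. Ndufb10, a disulfide-rich subunit of this arm, had 321 and 318 CPM in KO at 3w against 471 and 486 CPM in control at 3w, a change of -0.58 ± 0.0326. Ndufb9, a member of the LYR family that docks an acyl carrier protein, had 171 and 177 CPM in KO at 3w against 247 and 272 CPM in control at 3w. Ndufb3 had 88.2 and 90.6 CPM in KO at 3w against 129.7 and 137 CPM in control at 3w. These 3 genes changed by -0.58 each, with no overlap between the groups. Ndufb5 had 257 and 220.1 CPM in KO at 3w against 291 and 273 CPM in control at 3w, with no overlap but the smallest change of the list. Its change of -0.24 ± 0.0743 had an adjusted p of 0.0372 in edgeR's test and did not pass without any 1 of the 4 control libraries, with adjusted p between 0.0993 and 0.246. Ndufb6 changed by -0.33 ± 0.0672, and without the first control library at 3w its adjusted p was 0.052 in edgeR's test. Ndufb6 shares 39% of its exon bases with Smim27 on the other strand and Ndufb5 shares 12.3% with Mrpl47. The strand setting of the counting is not given in the sources used here, so reads of such pairs cannot be told apart. Ndufab1, the acyl carrier protein that also serves mitochondrial fatty acid synthesis, had 75.5 and 70.4 CPM in KO at 3w against 105 and 110.2 CPM in control at 3w, a change of -0.56 ± 0.0427.

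**Figure D2:**
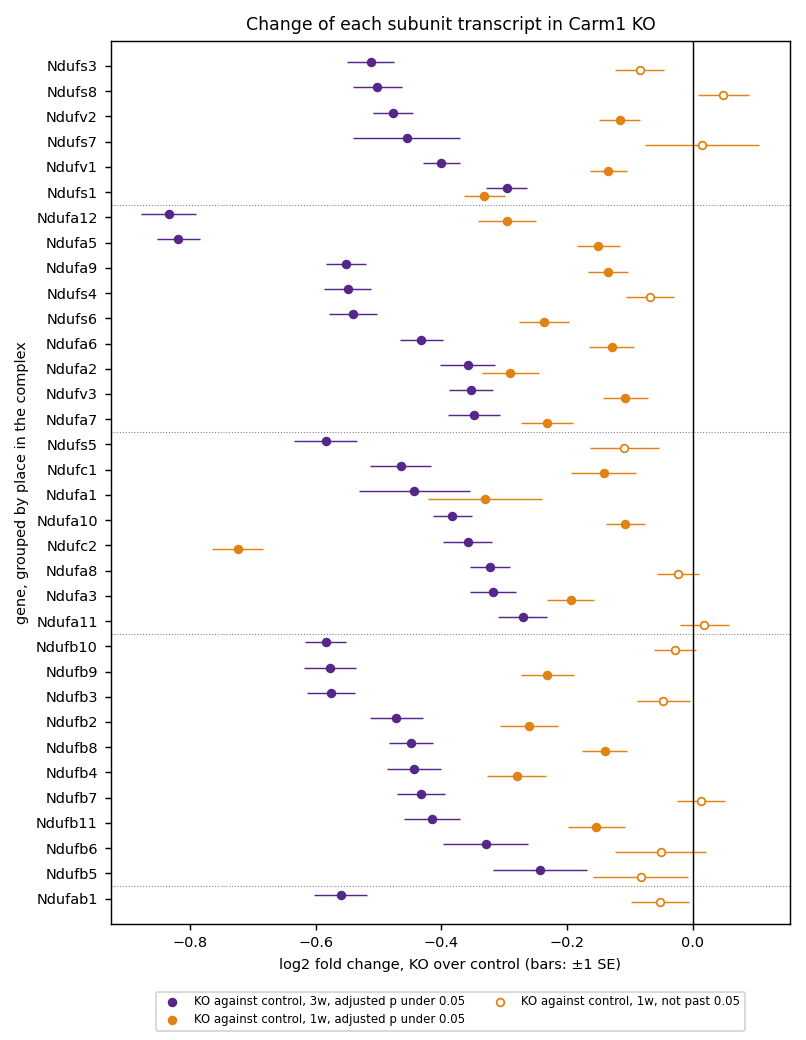
Log2 fold change of KO over control for each of the 34 subunit genes, grouped by role, at 3w (purple) and at 1w (orange), with bars of 1 SE and open symbols where the adjusted p was not under 0.05. All 34 values at 3w lie below 0, of which 5 are above 0 when scaled to contractile genes, and 21 of the 34 at 1w are filled, with Ndufc2 far below the rest at 1w.

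At 1w the list was lower in KO by less, with a median of -0.13, where the median of all genes was 0.02. Of the 34 genes, 21 were called lower and 0 higher, where 20% of all genes tested were called lower, 23% higher and 43% in either direction. In 27 genes both KO libraries lay below both control libraries, as in 32.8% of all genes, and in 1, Ndufa11, above them, as in 37.8% of all genes. The other 6 genes overlapped between the groups. Summed over the list, KO libraries at 1w held 4436.6 and 4375.6 CPM and control libraries at 1w held 4761.2 and 4941.2 CPM, a ratio of 0.908. Scaled to contractile genes, 9 genes were called lower and 3 higher (Ndufs8, Ndufa11 and Ndufb7), where 10.4% of all genes were called lower and 33.1% higher. Under that scaling 15 of the 34 values were above 0, among them Ndufa10 and Ndufv3 of the genes called lower in the main scaling, and the median was -0.02 against 0.13 for all genes, which is -0.15 relative to all genes. With DESeq2 20 genes were called lower and 0 higher, where 27.6% of all genes were called in either direction. Leaving out 1 library gave medians of the subunits from -0.16 to -0.10. Fibroblast markers at 1w summed to 2395 and 2370 CPM in KO against 1305 and 1309.5 CPM in control, and their part in the subunit changes was not tested.

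Ndufc2 stood apart at 1w. It had 57.9 and 55.7 CPM in KO at 1w against 91.2 and 96.3 CPM in control at 1w. Both KO libraries were far below the control libraries, and the change was -0.72 ± 0.0407 (adjusted p = 1.71e-23 in edgeR's test). The next largest falls at 1w were those of Ndufs1 and Ndufa1. Ndufs1 had 185 and 184 CPM in KO at 1w against 235 and 229 CPM in control at 1w, a change of -0.33 ± 0.0329. Ndufa1 had 141 and 135 CPM in KO at 1w against 159.6 and 185 CPM in control at 1w, a change of -0.33 ± 0.0905 with an adjusted p of 0.0396 in edgeR's test that was 0.0751 and 0.111 when either KO library at 1w was left out. Ndufa12 had 44.4 and 43.8 CPM in KO at 1w against 52.3 and 55.6 CPM in control at 1w, and its groups did not overlap either. Ndufa2 had 51.2 and 51.5 CPM in KO at 1w against 60.3 and 64.9 CPM in control at 1w, again with no overlap. Ndufa2, Ndufb4, Ndufb2, Ndufs6, Ndufa7 and Ndufb9 changed by -0.29 to -0.23.

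The roles are given in turn for 1w, and no test of a difference between them was made. Of all genes tested, 20% were called lower and 23% higher at 1w. Among the 21 subunits called lower, 12 were called in every alternative run other than the contractile scaling. In the matrix arm 8 of 9 accessory subunits were lower, Ndufs4 being the exception, with a median of -0.15. Of the core subunits 3 of 6 were lower (Ndufs1, Ndufv1 and Ndufv2), with a median of -0.10 that was 0.01 when scaled to contractile genes. In the proximal membrane arm 5 of 8 were lower, with a median of -0.13, and in the distal membrane arm 5 of 10, with a median of -0.11. Ndufab1 had 49 and 52 CPM in KO at 1w against 50.5 and 53.8 CPM in control at 1w, and these groups overlapped. Ndufs8 had 98.6 and 91.3 CPM in KO at 1w against 88.1 and 95.1 CPM in control at 1w, also with overlap. Its change of 0.05 ± 0.0404 was the highest on the list at 1w, with an adjusted p of 0.346 in edgeR's test. Ndufs7 had 98.6 and 99.7 CPM in KO at 1w against 88.6 and 106 CPM in control at 1w. Its sign differed with the control library left out: the change was 0.16 (adjusted p = 0.00273) without the second and -0.10 (adjusted p = 0.047) without the first control library at 1w, against 0.01 with both, all by edgeR's test. Ndufb6, Ndufb7 and Ndufb10 also had overlapping groups.

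Over the mean of both ages all 34 genes were lower in KO, where 25.3% of all genes tested were called lower and 52.8% in either direction. The mean changes ran from -0.56 ± 0.0319 for Ndufa12, -0.54 ± 0.0284 for Ndufc2 and -0.48 ± 0.0244 for Ndufa5 to -0.13 ± 0.0275 for Ndufa11, with a median of -0.30. This mean weighs KO and control libraries with and without the Y-linked transcripts equally. In a fit with additive terms for age and genotype, which counts a KO change that differs between the ages as spread, 26 of the 34 were called lower. Scaled to contractile genes 19 were called lower and 1, Ndufa11, higher, where 7.04% of all genes were called lower and 55% higher.

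The KO change at 3w was more negative than that at 1w for 27 of the 34 genes by the test of the difference itself, where 17.9% of all genes tested were called in that direction. Ndufc2 was the 1 gene in the other direction, as were 17.6% of all genes. The median difference, 3w minus 1w, was -0.30. Ndufa5 had the largest, -0.67 ± 0.0487 (adjusted p = 3.53e-18 in edgeR's test). Its KO libraries were at 166 and 170.3 CPM against 296 and 298 CPM in control at 3w, while at 1w they were at 151 and 143 CPM against 159.9 and 167 CPM in control. Ndufb10 differed by -0.56 ± 0.0464, Ndufs8 by -0.55 ± 0.0557, Ndufa12 by -0.54 ± 0.0637, Ndufb3 by -0.53 ± 0.0569 and Ndufab1 by -0.51 ± 0.063. All of these but Ndufa12 were not called at 1w. Ndufc2 differed by 0.37 ± 0.0567 (adjusted p = 2.83e-07 in edgeR's test). Ndufs1 differed by 0.04 ± 0.0461, and with Ndufb5, Ndufa3, Ndufa7, Ndufa1 and Ndufa2 it made up the 6 genes that did not pass. Scaled to contractile genes 12 genes were called more negative at 3w and 2, Ndufc2 and Ndufs1, less negative, where 7.35% of all genes were called in the first direction, 31.9% in the second and 39.2% in either. The median of all genes was 0.21 under that scaling and that of the subunits -0.09, which is -0.30 relative to all genes. KO at 3w and control at 1w lack the Y-linked transcripts that KO at 1w and control at 3w hold, so this difference and that split cannot be told apart. Atrial and epicardial markers were split the same way, with 5 of 6 atrial and 5 of 6 epicardial genes called more negative at 3w. Myl7, an atrial myosin light chain, had 1.98 and 1.71 CPM in KO against 13.9 and 13.3 CPM in control at 3w, and 92.9 and 96.3 CPM in KO against 7.47 and 8.36 CPM in control at 1w. Upk3b, a mesothelial gene, had 4.84 and 4.60 CPM in KO against 9.18 and 8.48 CPM in control at 3w, and 10.1 and 9.77 CPM in KO against 2.06 and 2.21 CPM in control at 1w. The part of these tissue markers in the difference between the ages was not tested.

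Between the 34 genes the size of the change at one age said little of that at the other. Pearson's r of the changes at 3w and 1w was -0.04 over 34 genes, or 0.08 without Ndufc2, with no library in both. The change at 3w also had low correlations with the mean level (r = 0.14) and the exon length (r = 0.18) of the genes. These are descriptions over genes of the same libraries.

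With age the list rose in both genotypes in the main scaling, a direction that turned when libraries were scaled to contractile genes. In KO 34 of 34 genes were higher at 3w than at 1w, with a median of 0.52, where 33.2% of all genes tested were called higher and 67.9% in either direction. In control 34 of 34 were higher at 3w, with a median of 0.85, where 34.9% of all genes were called higher and 70.8% in either direction. No group of 3w overlapped with its group of 1w in any of the 34 genes, where 40.5% of all genes in KO and 40.4% in control lay wholly above, and 42.8% in KO and 42.9% in control wholly below. Scaled to contractile genes, 1 gene was called higher and 27 lower at 3w in KO, and 2 higher and 16 lower in control. Of all genes, 7.25% were called higher and 76.7% lower in KO, and 6.7% higher and 79.8% lower in control. The medians of the subunits were -0.20 in KO and -0.08 in control. That scaling put the median of all genes at -0.74 in KO and -0.95 in control, so that the subunits stood at 0.54 in KO and 0.87 in control relative to all genes. The mean of KO and control gave 34 genes higher in the main scaling, where 37.4% of all genes tested were called higher and 76.8% in either direction. Between the ages each genotype also differed in Y-linked transcripts, which control held at 3w and KO at 1w, and in the days of injection. Atrial and epicardial markers differed too, with most higher at 3w in control and most lower in KO. Within a genotype, age cannot be told apart from these, and their part in the rise was not tested.

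**Figure D3:**
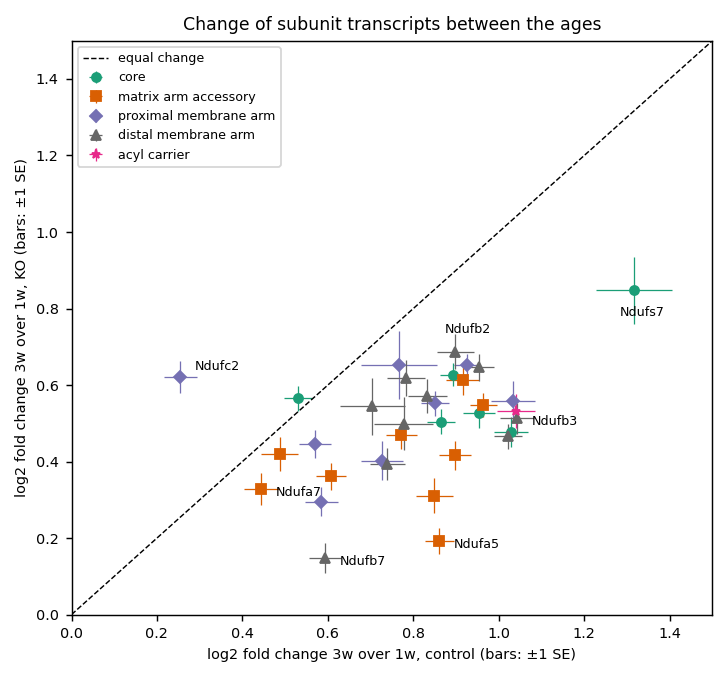
Log2 fold change of 3w over 1w for the 34 subunit genes, in control on the x axis and in KO on the y axis, with a line of equal change. Every gene but Ndufc2 and Ndufs1 lies below the line, and the medians of 0.52 in KO and 0.85 in control become -0.20 and -0.08 when scaled to contractile genes. Within each genotype the ages also differ in Y-linked transcripts and in the days of injection.

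The sizes differed from gene to gene. Ndufs7 rose most in both genotypes, a direction that held when scaled to contractile genes, with 182 and 175 CPM in KO at 3w against 98.6 and 99.7 CPM in KO at 1w. Control libraries had 253 and 236 CPM at 3w against 88.6 and 106 CPM at 1w. Its changes were 0.85 ± 0.0884 in KO and 1.32 ± 0.089 in control. Ndufb3 changed by 0.51 ± 0.0405 in KO, which turned to -0.21 under that scaling, and by 1.04 ± 0.04 in control, which did not turn. The next 5 genes turned to values below 0 under that scaling in both genotypes. Ndufa5 had 166 and 170.3 CPM in KO at 3w against 151 and 143 CPM in KO at 1w, a change of 0.19 ± 0.0347, while in control the change was 0.86 ± 0.0343. Ndufb7, a disulfide-rich subunit of the distal arm, had 149.8 and 149 CPM in KO at 3w against 136 and 134 CPM in KO at 1w, a change of 0.15 ± 0.0382, the smallest in KO, against 0.59 ± 0.0381 in control. Ndufc2 ran the other way, with 0.62 ± 0.0411 in KO and 0.25 ± 0.0391 in control, the smallest in control. Ndufa7 changed by 0.33 ± 0.0418 in KO and 0.44 ± 0.041 in control, and Ndufb2 by 0.69 ± 0.0445 in KO and 0.90 ± 0.0433 in control.

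**Figure D4:**
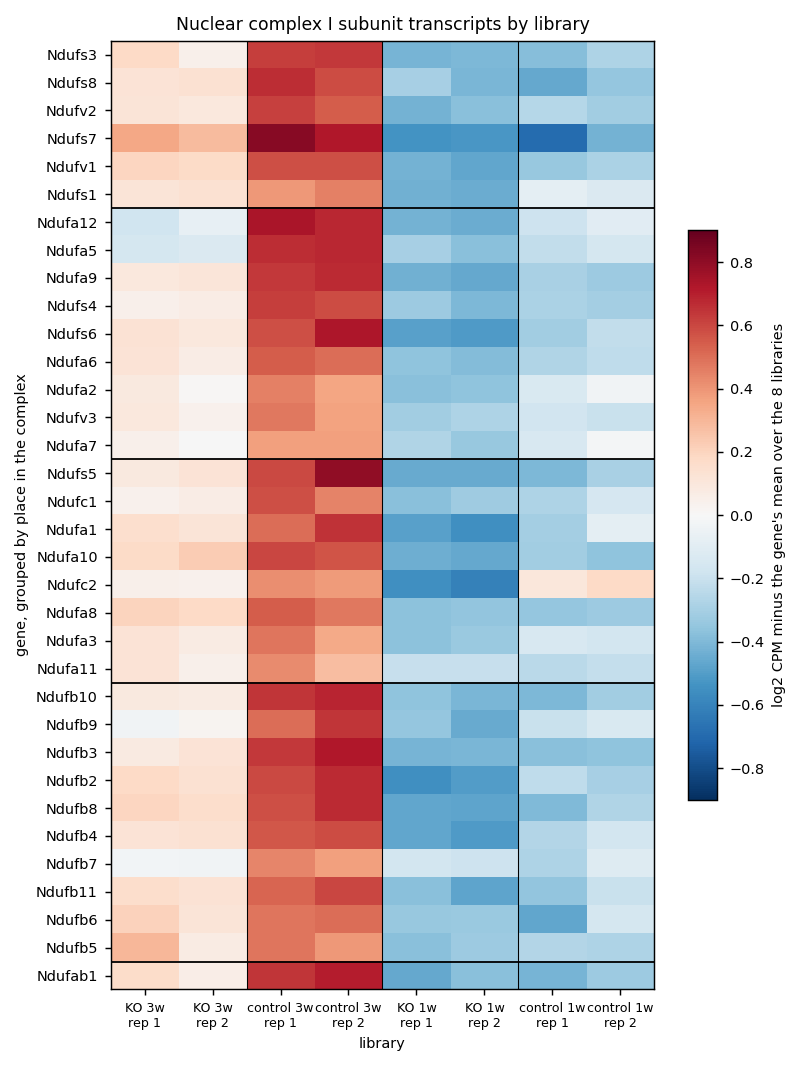
Log2 CPM of the 34 subunit genes in each library, relative to the gene's mean over all 8 libraries, with genes in rows by role and libraries in columns by group. The control libraries at 3w are high throughout, those of KO at 3w lie between them and the 1w libraries for most genes, and the 2 libraries of a group look alike.

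Per length of exon, the genes spanned a wide range of levels and stood in nearly the same order in KO and control. In RPKM, which is CPM divided by exon length in kilobases, Ndufa1 was highest, with KO means of 516 and control means of 703 at 3w, and KO means of 328 and control means of 412 at 1w. Ndufab1 was lowest, with 10.6 in KO against 15.7 in control at 3w, and 7.34 in KO against 7.58 in control at 1w. The length used joins all annotated exons of a gene, 6883 bases for Ndufab1 and 419 for Ndufa1, so the order depends on the annotation. By CPM Ndufc1 was lowest and Ndufv1 highest in every group. By RPKM the median gene was at 103 in KO against 144 in control at 3w, and at 70.6 in KO against 70.1 in control at 1w. Spearman's rho of the RPKM between KO and control over the 34 genes was 0.989 at 3w and 0.99 at 1w. Within groups the libraries lay close together, with a median coefficient of variation of 1.78% in KO and 3.42% in control at 3w, and of 1.66% in KO and 4.1% in control at 1w.

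The factors that assemble complex I were tested as a list of 19, of which 16 passed the filter. At 3w 13 of the 16 were lower in KO and 0 higher, with a median of -0.32, where 24.8% of all genes were called lower. Scaled to contractile genes the median became 0.01, and 4 were lower and 3 higher. Under that scaling 6.5% of all genes were called lower and 54.7% higher. Dmac2, needed for the distal arm, had 34.2 and 34.5 CPM in KO at 3w against 58.1 and 52.6 CPM in control at 3w, a change of -0.69 ± 0.0519. Ndufaf6, which acts on the ubiquinone-binding part, changed by -0.62 ± 0.103, and Tmem126b, of the complex that builds the membrane arm, by -0.52 ± 0.0786. Ndufaf7, itself an arginine methyltransferase that modifies a core subunit, changed by -0.49 ± 0.0616. These 4 also passed with the contractile scaling. At 1w 4 of the 16 were lower in KO and 1 higher, with a median of -0.08 that became 0.03 when scaled to contractile genes. Of all genes, 20% were called lower and 43% in either direction at 1w. Ndufaf1, a partner of Tmem126b, was the higher one, with 28.1 and 27.6 CPM in KO at 1w against 21 and 20 CPM in control at 1w. At 3w it was lower, with 33.5 and 33.4 CPM in KO against 44.7 and 45.6 CPM in control. The difference between its changes at the ages was -0.88 ± 0.0791 (adjusted p = 1.8e-14 in edgeR's test). Tmem126b was lower at 1w too, by -0.58 ± 0.0955.

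The 7 subunits encoded in mitochondrial DNA summed to 229310 and 230650 CPM in KO at 3w against 289860 and 306990 CPM in control at 3w. At 1w the sums were 163200 and 164320 CPM in KO against 188480 and 183700 CPM in control. At 3w 6 of the 7 were lower in KO, with a median of -0.39, and at 1w 4 of the 7, with a median of -0.13. The shares of all genes called lower were 24.8% at 3w and 20% at 1w. mt-Nd4l had 73.3 and 56.1 CPM in KO against 123 and 149.9 CPM in control at 3w, the largest called change of the 7, -1.07 ± 0.17, which was -0.75 when scaled to contractile genes. At 1w it was not called. mt-Nd5, a pump subunit, changed by -0.46 at 3w and -0.33 at 1w, and mt-Nd6 by -0.44 and -0.38, which stayed below 0 when scaled to contractile genes. Scaled to contractile genes the medians were -0.06 at 3w and -0.02 at 1w, and mt-Nd4, called lower in the main scaling at both ages, was called higher at 3w with 0.09. The summed levels of nuclear and mitochondrial subunits stood at KO to control ratios of 0.733 and 0.771 at 3w, and of 0.908 and 0.88 at 1w. The difference between the 2 kinds of subunit was not tested.

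The nuclear subunits of complexes II to V, which take up electrons from succinate, pass them on to oxygen and make ATP, were set beside complex I. Of 42 listed, 38 were tested, and of these 34 were lower in KO at 3w and 0 higher, with a median of -0.44, beside -0.45 for complex I. At 1w 27 were lower and 1 higher, with a median of -0.18, beside -0.13 for complex I. Of all genes tested, 24.8% were called lower and 24.4% higher at 3w, and 20% lower and 23% higher at 1w. Scaled to contractile genes 20 were lower and 2 higher at 3w and 10 lower and 2 higher at 1w, with medians of -0.11 and -0.07. Under that scaling 6.5% of all genes were called lower and 54.7% higher at 3w, and 10.4% lower and 33.1% higher at 1w. The summed levels of complexes II, III, IV and V stood at KO to control ratios of 0.745, 0.724, 0.73 and 0.74 at 3w, and of 0.883, 0.913, 0.881 and 0.875 at 1w. With age the medians were 0.46 in KO and 0.71 in control, which became -0.26 and -0.23 when scaled to contractile genes. No test of a difference between the complexes was made.

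**Figure D5:**
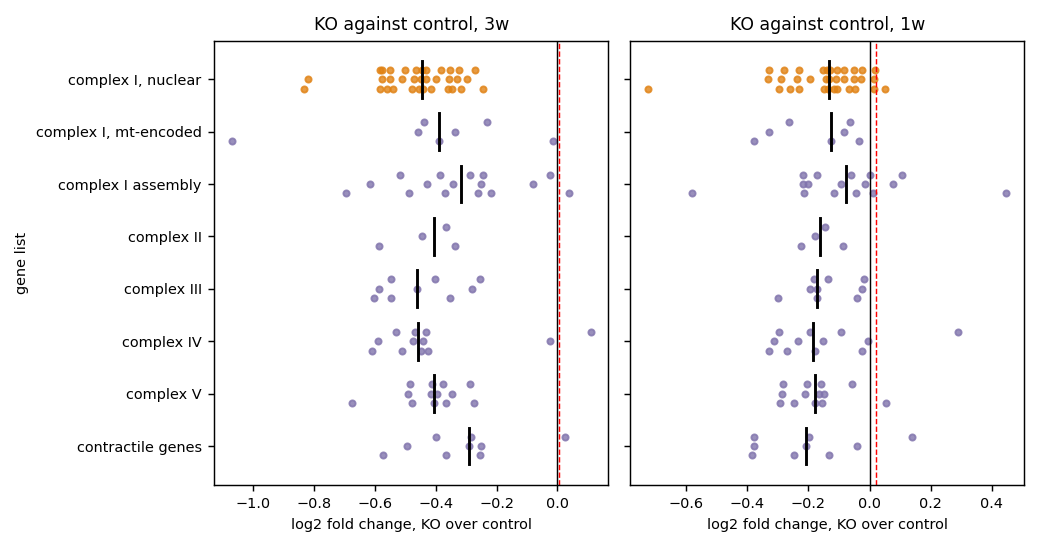
Log2 fold change of KO over control for each tested gene of the respiratory, assembly and contractile lists, at 3w on the left and at 1w on the right, with a black bar at the median of a list and a red dashed line at the median of all genes tested. At 3w the median was -0.45 for complex I and -0.44 over complexes II to V, and at 1w -0.13 and -0.18, which became -0.12, -0.11, -0.02 and -0.07 when scaled to contractile genes.

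Of the 12 regulators of mitochondrial genes on the list, Ppargc1a changed most. It encodes PGC-1alpha, a coactivator that drives mitochondrial biogenesis, and had 123 and 130.5 CPM in KO at 3w against 216 and 226 CPM in control at 3w. At 1w its levels were 125 and 121 CPM in KO against 394 and 383 CPM in control. The change was -0.80 ± 0.0352 at 3w and -1.66 ± 0.0347 at 1w, a difference of 0.86 ± 0.0491 (adjusted p = 6.97e-23 in edgeR's test). Its KO change was thus smaller at 3w. That difference cannot be told apart from the split of the groups by Y-linked transcripts, and the part of Ppargc1a in the subunit changes was not tested. Pprc1, a relative of PGC-1alpha, was higher in KO at both ages, by 0.71 ± 0.077 at 3w and 0.33 ± 0.0703 at 1w. Esrrb, an oestrogen-related receptor, was lower at 3w by -0.58 ± 0.058 and not called at 1w. These directions held when scaled to contractile genes. Gabpa was lower by -0.25 ± 0.0508 at 3w, a value of 0.07 under the contractile scaling, and by -0.49 ± 0.049 at 1w. Tfam, which packages mitochondrial DNA, was lower by -0.16 ± 0.0606 at 3w, where the contractile scaling gave 0.17, and higher by 0.16 ± 0.0629 at 1w. At 1w Ppara and Esrrg were lower by -0.45 and -0.41 and Esrra was higher by 0.20, and none of these 3 was called at 3w. Ppargc1b was lower at 1w by -0.17, which was not called under the contractile scaling. Nrf1, Gabpb1 and Yy1 were not called at either age in the main scaling. Under the contractile scaling 9 of the 12 were called higher at 3w and 2 lower, where 54.7% of all genes were called higher, 6.5% lower and the median of all genes was 0.33.

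Markers of other cell types moved with the KO groups. For comparison, 24.4% of all genes tested were called higher and 24.8% lower at 3w, and 23% higher and 20% lower at 1w. The fibroblast sums given above rested on a list in which 9 of 9 tested genes were higher in KO at both ages and Tcf21 was listed at 0. The macrophage list summed to 114 and 118 CPM in KO at 3w against 72.4 and 71.3 CPM in control at 3w. At 1w the macrophage list summed to 141 and 136 CPM in KO against 43.6 and 43.3 CPM in control, with 10 of 10 higher at both ages. The smooth muscle list was higher in KO in 8 of 8 genes at 3w and in 5 of 8 at 1w, where 2 were lower, and the endothelial list in 6 of 8 at 3w and in 8 of 8 at 1w. Smooth muscle markers summed to 1627 and 1631 CPM in KO against 826 and 795 CPM in control at 3w, and to 2016.5 and 2039 CPM in KO against 1432 and 1381 CPM in control at 1w. Endothelial markers summed to 372 and 378 CPM in KO against 303 and 297 CPM in control at 3w, and to 916 and 921 CPM in KO against 802 and 787 CPM in control at 1w. Of 6 atrial markers 5 were lower and 1, Nppa, higher in KO at 3w, and 6 of 6 were higher at 1w. Nppa, a natriuretic peptide gene, had 590.1 and 577 CPM in KO against 104 and 101 CPM in control at 3w, and carried most of the KO sums of 619.8 and 605 CPM against 197 and 192 CPM in control. At 1w atrial markers summed to 603 and 609 CPM in KO against 58.6 and 60.6 CPM in control. Of 6 epicardial markers 5 were lower in KO at 3w and 5 higher at 1w. Epicardial markers summed to 14 and 12.9 CPM in KO at 3w against 23.1 and 21.7 CPM in control at 3w. At 1w the sums were 42.7 and 41.1 CPM in KO against 23.8 and 25 CPM in control. Erythroid markers summed to 161.5 and 157 CPM in KO at 3w against 122 and 133 CPM in control at 3w. At 1w the sums were 27.5 and 26.1 CPM in KO against 55.5 and 77.5 CPM in control.

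Most contractile genes of cardiomyocytes were lower in KO, 8 of 9 tested at 3w and 7 of 9 at 1w, with medians of -0.29 and -0.21. At 3w Myl2 was not called, at 0.02. At 1w Myh6 was called higher, by 0.14, and Ttn was not called. These genes thus did not all move alike, and the contractile scaling rests on their sum. The shares of all genes called lower were 24.8% at 3w and 20% at 1w, and those called higher 24.4% and 23%. Contractile genes mark cardiomyocytes and were abundant in all 8 libraries. At 1w their sums were 44976 and 44558 CPM in KO against 47721 and 48852 CPM in control. The KO to control ratios of these sums, 0.798 at 3w and 0.927 at 1w, stood beside 0.733 and 0.908 for the subunits of complex I. With age the contractile sum changed by 1.648-fold in KO and 1.913-fold in control, and the complex I sum by 1.437-fold in KO and 1.781-fold in control. The part of the other cell types and of the contractile genes in the changes of the subunits was not tested.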

How the data were processed

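The deposited table holds whole-number counts per gene for 8 libraries. Per the submitters' processing notes the authors' tools were HISAT2 for alignment (mm10), featureCounts for the counts, FastQC, MultiQC and DESeq2. The strand setting, tool versions and annotation were not given in the sources used here. Libraries were made with SMART and Nextera XT kits from total RNA, per the labels' protocols.

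GENCODE M21 named 54723 of the 54752 gene IDs and gave coordinates and exon lengths (GRCm38). Every column belonged to a sample, and groups came from the sample titles. The filterByExpr function of edgeR (minimum count 10, minimum total 15) kept 14665 genes of the deposited counts, and TMM factors were 0.759 to 1.23. edgeR's robust quasi-likelihood F-test was run on all 4 groups in 1 fit. The residual degrees of freedom were 4, the common coefficient of variation was 3.03%, and the Benjamini-Hochberg adjustment of p-values ran over every gene kept. SEs were derived from the F statistic. The mean of both ages and the difference of the KO changes are contrasts of the same fit. The 35 genes and the other lists were chosen with earlier results of these data known. All 35 could be named, as could the 12 regulators. Of other lists up to 4 called genes per direction were named, by size, and with age the 2 lowest and 2 highest subunits in each genotype. Promoters were shown by the rule in the text.

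Alternatives were DESeq2 size factors, mitochondrial genes left out, scaling to 9 contractile genes with counts of 11 listed, no filter, DESeq2, only the libraries compared, an additive fit, a replicate block, each library left out, and counts of named copies added. The chi-square per gene between replicates was 1.447 to 6.397, above counting noise, and each library counts as 1 sample. The procedure was tested on simulated data with known folds. The versions were DESeq2 1.42.0, edgeR 4.0.16, limma 3.58.1 and R 4.3.3.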

Additional observations from a re-analysis of the deposited data

Results flagged for a closer look

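For 28 of the 34 subunit genes the KO change at 3w differed from that at 1w by edgeR's test of the difference (Benjamini-Hochberg adjusted p under 0.05), where 35.6% of all genes tested did. Values are log2 changes at 3w minus those at 1w. In the matrix-arm core the difference was -0.55 for Ndufs8, -0.47 for Ndufs7, -0.43 for Ndufs3, -0.36 for Ndufv2 and -0.27 for Ndufv1. Among the matrix-arm accessory subunits it was -0.67 for Ndufa5, -0.54 for Ndufa12, -0.48 for Ndufs4, -0.42 for Ndufa9, -0.3 for Ndufs6 and Ndufa6, and -0.24 for Ndufv3. In the proximal membrane arm it was -0.48 for Ndufs5, -0.32 for Ndufc1, -0.3 for Ndufa8, -0.29 for Ndufa11, -0.27 for Ndufa10 and 0.37 for Ndufc2, the 1 positive value. In the distal membrane arm it was -0.56 for Ndufb10, -0.53 for Ndufb3, -0.45 for Ndufb7, -0.35 for Ndufb9, -0.31 for Ndufb8, -0.28 for Ndufb6, -0.26 for Ndufb11, -0.21 for Ndufb2 and -0.16 for Ndufb4. For Ndufab1 it was -0.51. Of the 28, 24 were called in every alternative run other than the scaling to contractile genes, and the exceptions were Ndufb11, Ndufb6, Ndufs7 and Ndufb4. The split of the groups by Y-linked transcripts runs the same way as this difference and cannot be told apart from it. Atrial and epicardial markers split likewise, with 5 of 6 genes of each list called more negative at 3w, and their part in this difference was not tested.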

How the results depend on the processing

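The scaling moved the results most. Scaled to contractile genes, the subunits called fell in number. They were 21 in KO against control at 3w (all lower), 12 at 1w (9 lower, 3 higher) and 20 over both ages (19 lower, 1 higher). For the difference between the ages 14 were called (12 more negative, 2 less). The main scaling gave 34, 21, 34 and 28. For 3w against 1w in control 18 were called (16 lower, 2 higher), against 34, all higher. Of all genes, that scaling called 61.2%, 43.5%, 62.1%, 39.2% and 86.5% in these comparisons, in the same order. The medians with age turned to -0.20 in KO, -0.0821 in control and -0.13 over both. Among genes called in the main scaling those that turned were, at 3w, Ndufs1 (0.0279), Ndufa8 (0.0006), Ndufb5 (0.079), Ndufa3 (0.0048) and Ndufa11 (0.0515), and at 1w Ndufa10 (0.0014) and Ndufv3 (0.0017). Over both ages they were Ndufa8 (0.0434), Ndufb5 (0.0527), Ndufb6 (0.0286), Ndufb7 (0.0077) and Ndufa11 (0.09), and for the difference Ndufb2 (0.0022) and Ndufb4 (0.0475). With age 33 of the 34 genes turned in KO and 25 in control. Of the 7 genes followed with age, those that turned were in KO Ndufb3 (-0.21), Ndufa5 (-0.53), Ndufb2 (-0.0329), Ndufc2 (-0.10), Ndufb7 (-0.57) and Ndufa7 (-0.39), and in control Ndufa5 (-0.0726), Ndufb2 (-0.035), Ndufc2 (-0.68), Ndufb7 (-0.34) and Ndufa7 (-0.49). The cause was not tested. Without 1 library, the median of the subunits in KO against control ran from -0.48 to -0.45 at 3w and from -0.16 to -0.10 at 1w. Over both ages it was -0.32 to -0.28, and for the difference -0.36 to -0.28. With age it was 0.505 to 0.561 in KO and 0.82 to 0.89 in control. Ndufs7 at 1w was -0.10 without control replicate 1 at 1w and 0.163 without control replicate 2. DESeq2 called 34 subunits at 3w, 20 at 1w, 34 over both ages and 26 for the difference. It called 36.2%, 27.6%, 39.9% and 22.9% of all genes in these comparisons. Over all genes these were 4043 at 1w and 3351 for the difference, against 6305 and 5215 with edgeR. The fit with additive terms called 26 subunits and 4506 genes over both ages, against 34 and 7746. Of the genes called with all libraries in the main scaling, 31 of 34 at 3w (all but Ndufb5, Ndufb6 and Ndufs7), 12 of 21 at 1w (all but Ndufa1, Ndufa5, Ndufa6, Ndufa10, Ndufb8, Ndufb11, Ndufc1, Ndufv2 and Ndufv3) and 26 of 34 over both ages were called in every alternative other than the contractile scaling. Within an age, libraries with the same replicate number share an injection day in the labels. The correlations of same-numbered deviations between groups were -0.022 to 0.008, so they showed no pairing by replicate number. With the replicate block 34 subunits were called at 3w, 21 at 1w, 33 over both ages, 34 with age and 27 for the difference. The lowest count of a tested subunit in a library was 949.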
